A study of Homo sapiens with 2 samples.

Results

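The contactin-associated proteins and the contactins were followed through 1 microarray comparison in HEK-293, an established line derived from human embryonic kidney. Cells received either a mimic of miR-204 or, as control, a scrambled oligonucleotide. All probes listed under CNTNAP1, CNTNAP2, CNTNAP3, CNTNAP4, CNTNAP5, CNTN1 or CNTN2 were taken, without control spots. These 7 genes had 15 of the 41000 probes on the array. They were selected with the signals and ratios of these same arrays in view, so their values are given as a description, with no test.

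According to the labels both oligonucleotides were given at 75 nM for 48 h. The RNAs were hybridised together on 2 arrays of 2 colours. The first array had the control in Cy3 and miR-204 in Cy5, and the dye-swap array had them the other way round. No second transfection is named, so both arrays were counted as 1 replicate, and the spread between them was treated as technical. Whether both arrays used the same RNA extracts is not stated in the labels. As a cultured line, HEK-293 is a model of neither nerve nor kidney tissue. Of 8 genes known to be expressed in HEK-293 cells, 7 had a probe well above background, and PAX2 had none. Of 5 neuronal markers 4 did, of 5 markers of myelinating glia 2 did, of 2 astrocyte markers both did, and of 3 blood markers none did. The astrocyte marker AQP4 did so only in the control RNA. By the same rule 61.6% of all probes were counted, a share of probes and not of genes. Nothing about cell type is therefore read from these marker counts.

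Contactin-associated proteins are single-pass membrane proteins of the neurexin superfamily, and contactins are immunoglobulin-like cell adhesion molecules held in the membrane by a lipid anchor. In myelinated axons, the product of CNTNAP1 pairs with that of CNTN1 at the junctions beside the node of Ranvier, whereas the product of CNTNAP2 pairs with that of CNTN2 further along the axon, where voltage-gated potassium channels cluster. CNTNAP2 is one of the longest human genes and is best known from the nervous system, where its variants have been linked to epilepsy, autism and language disorders.

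MicroRNAs direct a protein complex to messenger RNAs chiefly through the seed, bases 2 to 8 of the mature strand. The mature strands of miR-204 are shown because they are the agent that differs between the RNAs, and miR-211-5p because it carries the same seed. The seed is in capitals, and the sequences are those of RefSeq on GRCh38.p14, written 5′ to 3′. The labels do not say which arm the mimic copied.
hsa-miR-204-5p: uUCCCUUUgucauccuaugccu
hsa-miR-204-3p: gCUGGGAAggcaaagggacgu
hsa-miR-211-5p: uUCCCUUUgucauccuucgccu
The 5p strand of miR-204 lies at chr9:70810031-70810052, on the minus strand. It is 22 bases long and differs from miR-211-5p by 2 bases, both outside the seed. Of 2545 mature names in the table, these 2 alone carry the seed. No probe sequence or 3′ UTR was used here, so no match between the seed and a contactin transcript was looked for.

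A probe was counted where at least 1 of the RNAs gave a signal well above background on both arrays. Log2 ratios of miR-204 to control were formed per array after quantile normalisation of the 4 channels. A probe was called where the mean of both arrays passed 2-fold with the same sign on each. Of the 15 probes, 6 were counted, and they covered 4 genes, CNTNAP1, CNTNAP2, CNTNAP3 and CNTN1. The other 9 probes were well above background in no channel. None of the 15 carried an outlier flag or was saturated.

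Of the 6 counted probes, 1 was called lower, a probe for CNTNAP2, and 0 were called higher. Over all 25270 counted probes, 131 were lower by the same rule, or 0.518%, and 31 were higher, or 0.123%. As the genes were selected on these ratios, nothing is read from the difference in these shares. The median of the mean log2 ratios was -0.08 over the 6 probes and 0.0015 over all counted probes. The ratio had the same sign on both arrays in 3 of the 6 and opposite signs in the other 3. Opposite signs were found for 52.4% of all counted probes.

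**Figure D1:**
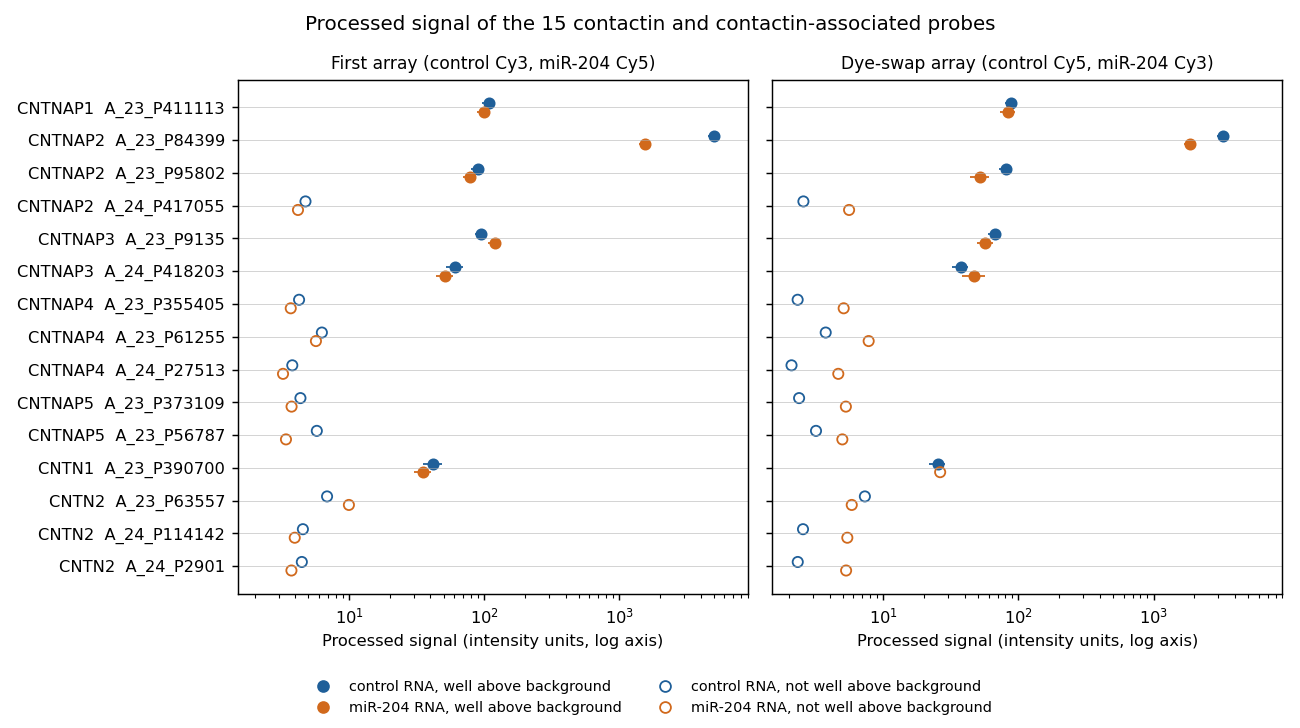
Processed signal (intensity units, log axis) of the 15 probes on the first (left) and dye-swap (right) array, for control (blue) and miR-204 (orange). Filled points are well above background, with the error given by the extraction software, and open points are not. The CNTNAP2 probe A_23_P84399 lies lower in the miR-204 RNA on both arrays, by 3.26-fold and 1.77-fold. The CNTNAP2 probe A_23_P95802 is also lower on both, by 1.14-fold and 1.55-fold. The pairs of CNTNAP3 and CNTN1 lie further apart than its pair on the first array and closer on the dye-swap array. The pair of CNTNAP1 lies closer on both.

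The ratio furthest from 0 among the 6 probes belonged to A_23_P84399, 1 of the 3 probes for CNTNAP2. It lies on chromosome 7 of hg18 from 147743724 to 147743783, and whether this is coding or untranslated sequence was not determined, as no annotation of that build was used here. Its processed signal for control and miR-204 was 5050 and 1547 on the first array, 3.26-fold lower with miR-204. The same signals were 3286 and 1862 on the dye-swap array, 1.77-fold lower. Both control signals thus lay above both miR-204 signals, and the arrays gave the same direction with the dyes exchanged.

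After normalisation the log2 ratio of this probe was -1.70 on the first array, -0.80 after the dye swap, and averaged -1.25 ± 0.63 (SD of 2 technical arrays). This mean is a 2.38-fold lower signal with miR-204. In RNA from whole cultures, fewer cells with the transcript and less of it per cell cannot be told apart. The arrays differed by 0.89 in log2 ratio, against an error of 0.20 for either array as propagated from the software's errors of the signals. The first array alone passed 2-fold and the dye-swap array did not, so without the first array the call was lost at -0.80. The control signal was 1.54-fold higher on the first array than on the dye-swap array, and the miR-204 signal was 1.20-fold higher on the dye-swap array than on the first.

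In the order of all 25270 counted probes, 59 had a mean at or below that of A_23_P84399, or 0.234%. Taking the arrays singly, 84 probes were at or below its ratio on the first and 372 on the dye swap. Among the 23159 counted probes that cleared background in all 4 channels it was number 9 from the lowest. In the set of counted probes, 6 others were at least as low on each array, taking its ratios as rounded to -1.698 and -0.8047.

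**Figure D2:**
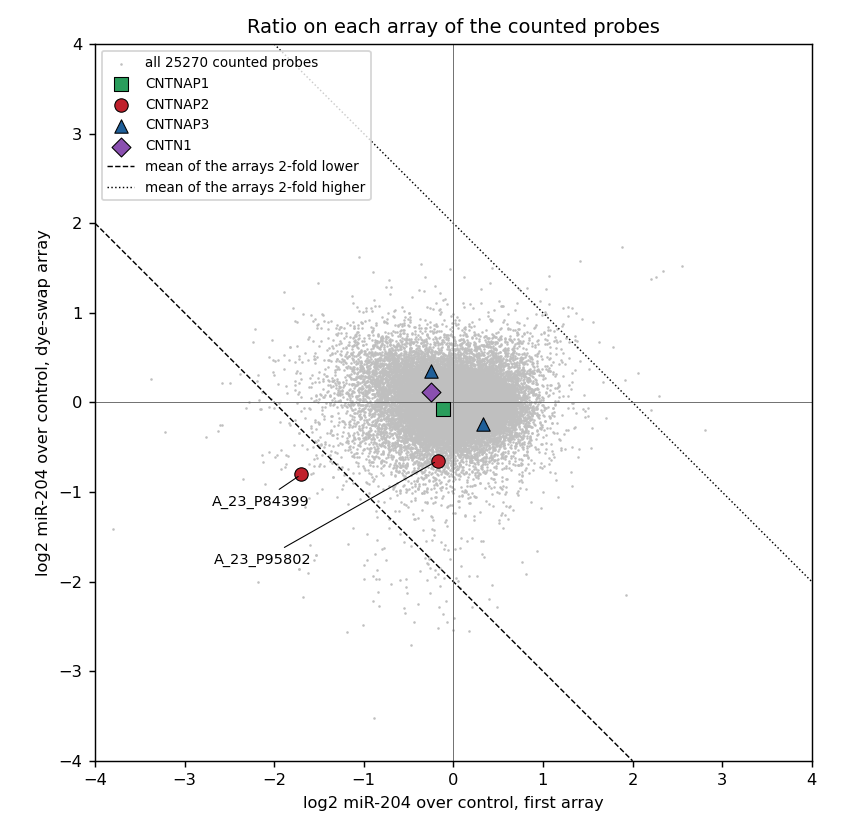
Log2 ratio of miR-204 over control for the first array (x axis) against the dye-swap array (y axis) for the 25270 counted probes (grey) and the 6 counted contactin family probes (coloured). The dashed and dotted lines mark a mean of the arrays that is 2-fold lower or higher; only A_23_P84399 of the coloured points lies beyond either line, and the first array has the wider spread, with an SD over probes of 0.45 against 0.33.

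The other CNTNAP2 probes did not show a ratio of that size. The 3 probes also differed widely in brightness. In the control RNA on the first array, A_23_P84399 had a processed signal of 5050, A_23_P95802 89.7 and A_24_P417055 4.75. Whether all 3 read the same transcript was not tested, so the ratio of A_23_P84399 is that of 1 probe and not of the gene. A_23_P95802, from 147744129 to 147744188, starts 405 bases further along the chromosome. Its processed signal for control and miR-204 was 89.7 and 78.5 on the first array, then 80.3 and 51.9 on the dye swap. It was lower with miR-204 on both arrays, with log2 ratios of -0.18 and -0.65 and a mean of -0.41 ± 0.34 (SD of 2 technical arrays). This was the counted probe of the family nearest outside the 2-fold line, and A_23_P84399 the only one inside it.

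Both probes thus had the same direction on each array, but the gap between them was not the same. The log2 ratio of A_23_P84399 minus that of A_23_P95802 was -1.52 on the first array, then -0.15 on the dye swap. With normexp background correction, which adds an offset of 50 to each signal, and loess, the mean of A_23_P95802 was -0.27. Such an offset draws the ratios of dim probes towards 0 by construction and hardly moves those of bright ones. Of all counted probes, 6.67% had a mean at or below that of A_23_P95802. Averaged over both probes, the CNTNAP2 ratio was -0.94 on the first array, then -0.73 on the dye swap. The mean was -0.83, which is short of 2-fold. Taking the brighter probe in place of the mean gave -1.25.

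The remaining CNTNAP2 probe, A_24_P417055, lies from 147746790 to 147746849, 2661 bases beyond the start of A_23_P95802. Its processed signal for control and miR-204 was 4.75 and 4.18 on the first array, then 2.56 and 5.57 on the dye swap. No channel was well above background, and all 4 values are stand-ins that the software sets where a signal does not clear background. It gives no ratio for CNTNAP2 in either direction.

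**Figure D3:**
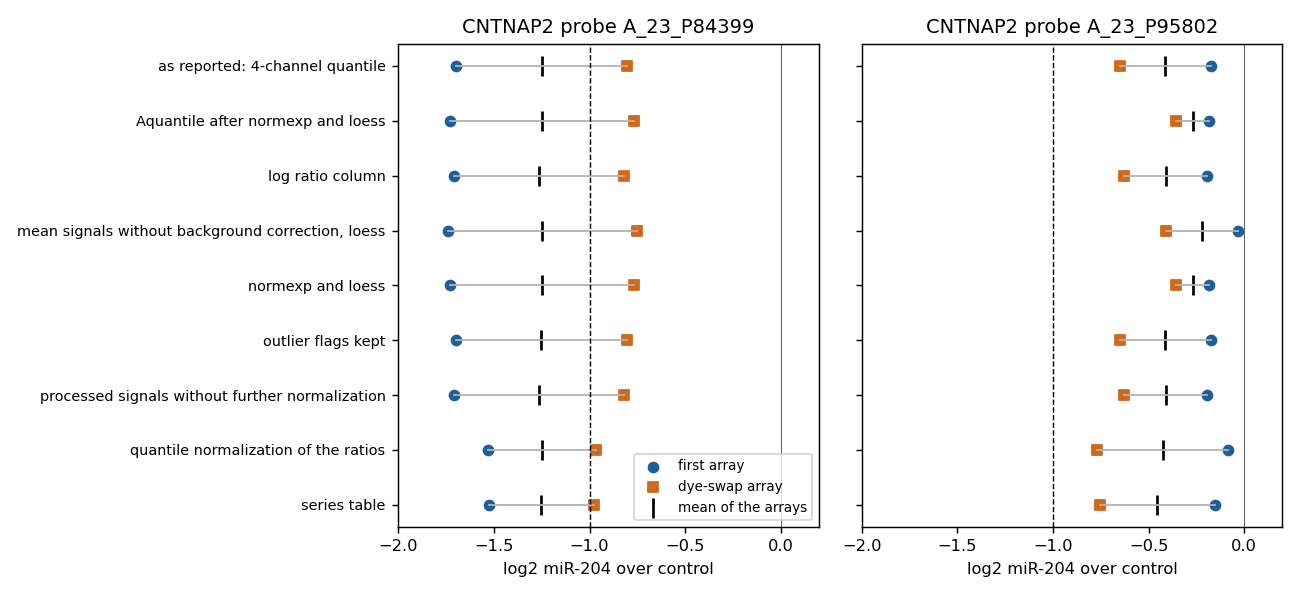
Log2 ratio of miR-204 over control for the CNTNAP2 probes A_23_P84399 (left) and A_23_P95802 (right) as reported and under 8 other ways of processing both arrays. Circles are the first array, squares the dye-swap array, ticks their mean, and the dashed line is 2-fold lower; the mean of A_23_P84399 lies between -1.26 and -1.25 throughout, and that of A_23_P95802 stays between 0 and the dashed line.

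CNTNAP1, which builds the paranodal junction with CNTN1, had 1 probe, A_23_P411113, on chromosome 17 from 38105137 to 38105197. Its processed signal for control and miR-204 was 108.2 and 99.8 on the first array, then 88.1 and 83.6 on the dye swap. The log2 ratios were -0.12 and -0.08, with a mean of -0.10 ± 0.03 (SD of 2 technical arrays). The ratio lay well inside the 2-fold lines on both arrays, and 32.9% of all counted probes had a mean at or below it.

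CNTNAP3, a further member of the family with several near-identical copies on chromosome 9, had 2 probes. RefSeq lists 2 more protein-coding copies and 9 pseudogenes, so it is uncertain from which copy the signal came. A_23_P9135, from 39063304 to 39063363, had processed signals for control and miR-204 of 95.1 and 119.6 on the first array, then 66.5 and 56.9 on the dye swap. A_24_P418203, whose position in the files spans 5352 bases from 39156052 to 39161403, had 60.9 and 51.3 on the first array, then 37.3 and 47.2 on the dye swap. The order of the RNAs turned between the arrays for both probes, and in opposite ways. The log2 ratios were 0.34 and -0.24 for A_23_P9135 and -0.25 and 0.35 for A_24_P418203. Their means were 0.05 for each, less than the difference between arrays.

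CNTN1, the axonal partner of CNTNAP1, had 1 probe under its own name, A_23_P390700, on chromosome 12 from 39700423 to 39700482. For control and miR-204 the processed signal was 41.9 and 35.3 on the first array, then 25.2 and 26.3 on the dye swap. The last of these values was not well above background, so the probe was counted through its control signals. The log2 ratios were -0.25 and 0.11, with a mean of -0.07, and the direction turned between the arrays.

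The 3 remaining genes were not well above background in either RNA. CNTNAP4, known from the synapses of inhibitory neurons, had 3 probes, CNTNAP5 had 2, and CNTN2, the partner of CNTNAP2 on the axon, had 3. Together with the third CNTNAP2 probe, these 9 probes had processed signals from 3.79 to 6.86 for control and from 3.24 to 9.96 for miR-204 on the first array. After the dye swap they ran from 2.09 to 7.29 and from 4.64 to 7.78. The lowest spots well above background in the same channels were at 19.5 and 15.9 on the first array and at 10.2 and 24.4 on the other, so every one of the 9 lay below them. Most values were stand-ins, 7 and 8 of 9 on the first array and 6 and 9 of 9 on the other, and no ratio was taken from them. A fall of these genes, or a rise that stayed below background, was therefore not detectable on these arrays. A rise with miR-204 to well above background would have been counted and was not seen.

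CNTN2 may be read beside CNTNAP2, since their products act together in neurons. Its probe A_23_P63557 had processed signals for control and miR-204 of 6.86 and 9.96 on the first array, then 7.29 and 5.83 on the dye swap. None of these was well above background. CNTNAP2 thus had 2 counted probes in these cells, while its known partner had none.

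The wider set of known partners was then described, from a list of 36 genes that held the other contactins, neurexins, cell adhesion molecules, receptors and ligands of contactins, potassium channel subunits, and the scaffold, ankyrin, spectrin and protein 4.1 genes that tie these junctions to the cytoskeleton. Of these, 35 were on the array by name and 23 had a counted probe. Of their 33 counted probes, 0 were called lower and 1 was called higher, against 0.518% and 0.123% over all counted probes. The gene means were below 0 for 13 genes and above 0 for 10, with a median of -0.04. The ratio had the same sign on both arrays for 11 of the 23 genes.

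The called probe belonged to SPTBN4, a beta spectrin of nodes and axon initial segments. For control and miR-204 its processed signal was 30.3 and 79.5 on the first array, then 36.3 and 58.0 on the dye swap. The log2 ratios were 1.38 and 0.69, with a mean of 1.03. With normexp background correction and loess this mean was 0.36 and the call was lost, and it was 0.69 on the dye swap alone. The offset of 50 draws the ratio of a probe this dim towards 0. The other SPTBN4 probe was not counted.

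Next highest among the partners were PTPRZ1 and PTPRG, receptor phosphatases that bind contactins. The ratios of PTPRZ1, from the 1 counted of its 3 probes, were 1.18 and 0.19, with a mean of 0.69, and those of PTPRG were 0.40 on both arrays. Another PTPRZ1 probe, A_24_P235248, was well above background in 1 channel only and had 0.26 and -0.07. The remaining PTPRZ1 probe was well above background in no channel. The ratio of PTPRG was nearly the same on each array, whereas that of PTPRZ1 came mostly from the first. Both depended on the processing. With normexp and loess the mean of PTPRZ1 was 0.25, and the PTPRG probes A_23_P41054 and A_32_P93493 went from 0.23 and 0.56 to 0.08 and 0.13.

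The lowest gene means were listed for LGI1, KCNAB2 and EPB41, and each rests in part on miR-204 signals that were not well above background, so their order is not settled. LGI1, a secreted protein linked to epilepsy that binds ADAM22, had 0.06 on the first array, then -1.17 on the dye swap, where its processed signal was 30.4 for control and 12.6 for miR-204, the latter not well above background. KCNAB2, an auxiliary subunit of the potassium channels that CNTNAP2 gathers, had 2 counted probes, and so had EPB41, the founding member of the protein 4.1 family. For 1 probe of each, the miR-204 signal was not well above background on either array. The other KCNAB2 probe had -0.80 and 0.11, and the other EPB41 probe had 0.004 and -0.38. With normexp and loess, LGI1 had a mean of -0.15, and these KCNAB2 and EPB41 probes had -0.16 and -0.08.

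The channel subunits KCNA1 and KCNA2, which cluster with CNTNAP2 in axons, and the contactins CNTN3, CNTN4, CNTN5 and CNTN6 had no probe well above background in any channel. L1CAM, CHL1, NCAM1, KCNAB1 and DLG2 were likewise not counted. FOXP2, a transcription factor known to bind the CNTNAP2 gene, had -0.06 and 0.24, with a mean of 0.09. CASK, a scaffold protein of neurexins, had 0.41 and -0.05, and DLG4, the postsynaptic scaffold protein, had -0.23 and 0.15. These partners changed sign between the arrays.

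**Figure D4:**
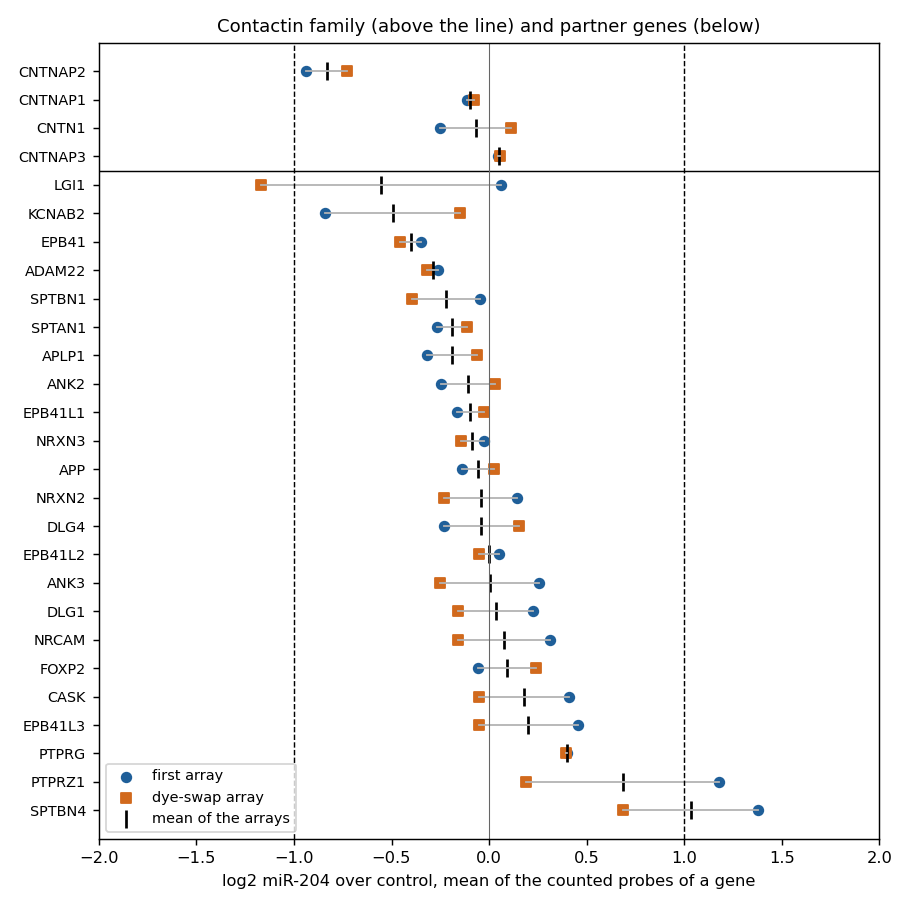
Log2 ratio of miR-204 over control, as the mean of the counted probes of a gene, for the 4 counted contactin family genes (above the line) and the 23 counted partner genes (below it, from lowest to highest). Circles are the first array, squares the dye-swap array, ticks their mean, and dashed lines mark 2-fold; the mean of SPTBN4 lies beyond a dashed line and the means of all other genes shown lie between them.

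Finally, the gene names with a counted probe whose ratios on both arrays lay nearest to those of the CNTNAP2 probe A_23_P84399 were listed, by the straight-line distance over the 2 arrays. Each name stands for its nearest probe only, and any other probes of the same gene are not described. They were EHBP1, with -1.59 and -0.80, MGC87631, CEP152, MPP7 and MALAT1, with -1.88 and -0.72. The distances ran from 0.105 for EHBP1 to 0.202 for MALAT1. With 2 points per probe and 25270 probes this measure is coarse, and it was used as a description. The miR-204 signal of CEP152 was not well above background on either array, and the others cleared it in every channel. The likeness depended on the processing. With normexp and loess the CNTNAP2 probe stayed at a mean of -1.25, while EHBP1 went to -0.86, MPP7 to -0.70, MGC87631 to -0.61, MALAT1 to -0.59 and CEP152 to -0.20. The offset of 50 in this setting moves ratios more the dimmer a probe is. The contrast is therefore not read as a firmer result for the CNTNAP2 probe.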

How the data were processed

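A miR-204 mimic and a scrambled oligonucleotide were compared in HEK-293 cells on 2 Agilent arrays that form a dye swap. Signals came from the authors' use of Feature Extraction, version 9.5.3.1. Its processed signals, as deposited, are background-corrected and dye-normalized intensity values. Mean spot and background signals were deposited as uncorrected intensity values. A deposited log10 column gives Cy5 relative to Cy3. The log2 ratios of the series table were quantile normalized by the authors and ran as miR-204 over control. The deposited spot flags are other values (yes or no). The authors' p-values were not used.

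Spots of a probe were averaged, 128 outlier-flagged probes were removed, and log2 processed signals were quantile normalized across the 4 channels with limma 3.58.1 in R 4.3.3. The steps were tested on simulated data with planted changes much larger than those reported here, so this check does not cover calls near 2-fold. With 1 replicate no test between conditions was made, and the number of arrays limits the precision. The methods' t-test and limma were run as alternatives, over technical arrays. Probe positions are hg18, from the files. Gene copies and miRNA sequences come from RefSeq tables on GRCh38.p14. Of 15 probes, 13 matched RefSeq by their sequence record. Named partners are those past 2-fold, the lowest 3 and the highest 3, and others after their role, chosen after their values were seen. The members and lists were chosen with earlier results of these data known.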

Additional observations from a re-analysis of the deposited data

How the results depend on the processing

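The mean log2 ratio of the CNTNAP2 probe A_23_P84399 was below 0 under all 10 alternatives that give it a value, from -1.26 to -1.25 in the 8 that used both arrays, of which the log ratio column and Aquantile repeat another setting's ratios by construction. It was -0.80 without the first array and -1.70 without the dye-swap array. The CNTNAP2 gene mean became -1.25 with the brighter probe. The mean of A_23_P95802 was -0.27 with normexp and loess and -0.22 with mean signals without background correction. The offset of 50 in the former and the background left in by the latter draw the ratios of dim probes towards 0. A probe as bright as A_23_P84399 hardly moves under either, so its stable mean there was fixed largely by its brightness. The number of family probes called lower, 1 as reported, was 0 on the dye-swap array alone, 0 with 2-fold on each array, 0 with the methods' t-test, both unadjusted and after Benjamini-Hochberg adjustment, and 0 with limma after that adjustment. With limma unadjusted it was 1. These counts run over technical arrays, on probes selected by their ratios, and test nothing about the conditions. No family probe was called higher under any alternative.

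Over all probes the counts moved more. With normexp and loess, with Aquantile after them, and with mean signals without background correction, 7 were lower and 2 higher, A_23_P84399 among the lower. Quantile normalization of the ratios gave 18 higher. On 1 array alone, 208 to 724 were lower and 77 to 194 higher. Without a filter on signal 400 were lower and 252 higher, with the filter in all 4 channels 29 and 18, at 1.5-fold 662 and 322, and with 2-fold on each array 22 and 13. The methods' t-test with 2-fold left 18 and 15, limma left 58 and 26, and after adjustment either left 0. The cause was not tested.

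The arrays were counted as 1 replicate, so neither the spread between cultures nor a false call rate can be given. Each ratio already pairs both RNAs within an array, so no further block was fitted. For the 9 probes near background these arrays set no ratio.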

Other observations

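Before any correction for background or dye, the mean spot signal of the CNTNAP2 probe A_23_P84399 for control and miR-204 was 3552 and 1310 on the first array, then 5274 and 1299 on the dye swap. The local background was between 62.0 and 71.0 in the 4 channels. The uncorrected signals were thus also lower with miR-204 under either dye.

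A second probe described as contactin-1, A_24_P128200, is listed under a transcript record and not under CNTN1. Its processed signals of 5.03 and 9.47 on the first array and 8.04 and 6.16 on the dye swap were not well above background. Another probe, A_24_P652609, is described in the files as weakly similar to a contactin-associated protein. Its processed signals for control and miR-204 were 99.1 and 89.7 on the first array and 70.2 and 70.3 on the dye swap, a mean log2 ratio of -0.06. A_23_P20532, described as weakly similar to Caspr2, the product of CNTNAP2, had log2 ratios of 0.33 and -0.69, with the miR-204 signal on the dye swap not well above background. Both these probes are listed under RP11-138L21.1 on chromosome 9, the chromosome of CNTNAP3 and its copies, so they give no value for CNTNAP2. A further probe of that name, A_24_P61029, was well above background in no channel.

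Among the astrocyte markers, 1 probe for AQP4, the water channel of astrocyte end-feet, was called lower, with log2 ratios of -0.70 and -2.03 and a mean of -1.36. Its miR-204 signal was not well above background on either array, and with normexp and loess the mean was -0.27 and the call was lost. The other marker, GFAP, had 0.27 and -0.13, with a mean of 0.07. No astrocyte-like expression is read from these probes, and whether they bear on the contactin family values was not tested.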
